A study of Mus musculus with 14 samples.

Results

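A set of 9 long noncoding RNAs was followed in mouse kidney after renal ischemia/reperfusion injury (IRI), a model in which the renal blood supply is interrupted and then restored. They were chosen by symbol, with earlier results of these data known: Neat1, Malat1, H19, Meg3, Gas5, Snhg1, Snhg12, Mir22hg and Pvt1. They are 9 of the 24411 gene symbols listed in every library. H19 had no read in 7 of the 14 libraries, and Meg3 none in 1. Bulk RNA sequencing was performed on whole kidneys of male C57/B6 mice aged 8 weeks, with 4 libraries at day 0, 5 at day 1 and 5 at day 3 after IRI. The day 0 libraries are named as controls, and whether those mice had a sham operation is not given in the sources used here. All mice were of the same strain and sex, and no allele or drug was named for any group. Levels are given as CPM, the reads of a gene for every 1000000 reads on genes, scaled by the trimmed mean of M-values (TMM). A change was called at an adjusted p under 0.05 in edgeR's quasi-likelihood test, with the adjustment made over all 14300 genes that passed a filter on low counts. Of the 9 RNAs, 8 passed that filter, and H19 did not.

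Long noncoding RNAs are transcripts with no known protein product, and the 9 act at different places. Neat1 is the scaffold of paraspeckles, nuclear bodies that hold RNA-binding proteins, and Malat1 is an abundant RNA of nuclear speckles, where splicing factors collect. H19 and Meg3 are imprinted genes expressed from the maternal allele, abundant in the embryo and low in most adult organs. Gas5, Snhg1 and Snhg12 are host genes of small nucleolar RNAs (snoRNAs), which guide the modification of ribosomal RNA and are cut from the hosts' introns, while the spliced host RNA is itself turned over during translation. Mir22hg is the primary transcript of miR-22, and Pvt1 lies beside the growth regulator Myc.

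The genes were placed on GRCm38 with the GENCODE M21 annotation, the assembly also known as mm10. Neat1 (ENSMUSG00000092274.3) lies at chr19:5824708-5845478 and Malat1 (ENSMUSG00000092341.3) at chr19:5795690-5802672, both on the minus strand and 22.04 kb apart. H19 (ENSMUSG00000000031.16) is at chr7:142575529-142578143 on the minus strand. Meg3 (ENSMUSG00000021268.17) is at chr12:109541001-109571726, Gas5 (ENSMUSG00000053332.13) at chr1:161034422-161038539 and Snhg1 (ENSMUSG00000108414.1) at chr19:8723475-8726443, all on the plus strand. Snhg12 (ENSMUSG00000086290.9) at chr4:132308623-132311024, Mir22hg (ENSMUSG00000085148.1) at chr11:75461539-75466676 and Pvt1 (ENSMUSG00000097039.8) at chr15:62037986-62378096 are also on the plus strand. The annotation places 10 snoRNA entries within Gas5, 8 within Snhg1 and 5 within Snhg12, on the host's strand.

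By annotation 3 of these RNAs, Mir22hg, H19 and Meg3, carry microRNAs. All 7 mature sequences listed within them are shown, with the seed, bases 2 to 8, in capitals, because these microRNAs lie in the same transcripts as the long RNAs. The miR-22 arms lie in an exon of Mir22hg, at chr11:75463734-75463755 and chr11:75463772-75463793, and the miR-675 arms lie in an exon of H19, at chr7:142577112-142577133 and chr7:142577078-142577099 on the minus strand. Exons of Meg3 hold miR-1906, at chr12:109544588-109544609, and the miR-770 arms, at chr12:109563710-109563731 and chr12:109563744-109563765. No seed was shared among the 7. The sequences are RefSeq's for GRCm38.p6, and the libraries hold no measurement of the mature microRNAs.
miR-22-5p: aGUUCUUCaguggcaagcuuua
miR-22-3p: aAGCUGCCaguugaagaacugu
miR-675-5p: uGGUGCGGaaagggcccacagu
miR-675-3p: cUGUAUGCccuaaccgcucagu
miR-1906: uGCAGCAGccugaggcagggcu
miR-770-5p: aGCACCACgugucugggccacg
miR-770-3p: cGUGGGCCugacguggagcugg

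Promoters, taken as 250 bases before to 50 bases after the annotated start, were held for 6 of the 9 RNAs in the RefSeq table for GRCm38.p6. Those of the 5 RNAs among them that rose by day 1 are shown, 5′ to 3′ on the gene's strand, because these are the regions from which the rising RNAs start. For Gas5, which has 2 listed, the second is shown, whose start carries a pyrimidine tract. The search covered TGACGTCA (the cAMP response element), TGANTCA (an AP-1 site), CACGTG (an E-box) and TATAAA (the TATA box) on both strands, plus a C followed by 5 C or T on the gene's strand within 10 bases of the start, the form of a terminal oligopyrimidine (TOP) tract. Capitals mark the matches.
Gas5, chr1:161034916-161035215, plus strand: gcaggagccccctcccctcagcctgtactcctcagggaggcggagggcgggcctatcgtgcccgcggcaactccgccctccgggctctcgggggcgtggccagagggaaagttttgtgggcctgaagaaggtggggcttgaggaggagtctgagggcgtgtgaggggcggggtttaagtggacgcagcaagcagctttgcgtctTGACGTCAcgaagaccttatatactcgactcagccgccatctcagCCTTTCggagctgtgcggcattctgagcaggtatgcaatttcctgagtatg
Snhg1, chr19:8723237-8723536, plus strand: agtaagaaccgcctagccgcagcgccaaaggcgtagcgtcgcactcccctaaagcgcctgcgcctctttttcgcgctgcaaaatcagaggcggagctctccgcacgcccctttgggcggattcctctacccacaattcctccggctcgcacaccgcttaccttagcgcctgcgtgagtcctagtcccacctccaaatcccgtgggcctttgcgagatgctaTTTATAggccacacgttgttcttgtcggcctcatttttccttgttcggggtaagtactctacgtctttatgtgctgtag
Snhg12, chr4:132308428-132308727, plus strand: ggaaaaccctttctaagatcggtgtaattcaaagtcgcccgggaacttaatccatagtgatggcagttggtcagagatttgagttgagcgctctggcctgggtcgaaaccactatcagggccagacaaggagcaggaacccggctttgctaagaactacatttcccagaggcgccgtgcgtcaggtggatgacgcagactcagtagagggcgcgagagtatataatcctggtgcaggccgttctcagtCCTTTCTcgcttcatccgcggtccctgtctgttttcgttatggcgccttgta
Mir22hg, chr11:75461289-75461588, plus strand: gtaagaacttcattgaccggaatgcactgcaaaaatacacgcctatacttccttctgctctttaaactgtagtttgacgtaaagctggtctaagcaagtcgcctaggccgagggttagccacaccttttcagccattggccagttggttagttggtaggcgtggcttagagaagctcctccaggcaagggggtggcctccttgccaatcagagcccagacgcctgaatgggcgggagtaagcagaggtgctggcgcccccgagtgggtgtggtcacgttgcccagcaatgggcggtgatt
Malat1, chr19:5802623-5802922, minus strand: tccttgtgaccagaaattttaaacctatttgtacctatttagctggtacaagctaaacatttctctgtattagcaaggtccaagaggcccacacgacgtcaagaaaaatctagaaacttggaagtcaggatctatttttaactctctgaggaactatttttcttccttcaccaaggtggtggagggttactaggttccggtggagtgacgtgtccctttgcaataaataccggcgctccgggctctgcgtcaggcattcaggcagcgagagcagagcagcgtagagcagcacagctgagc

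In the Gas5 promoter shown, a cAMP response element began 46 bases before the start, and such an element was present in 1.79% of 32851 promoters of this length. A TOP-like tract was present at the start of Snhg12 and in 19.2% of all promoters. The Gas5 promoter shown has one because it was chosen for it, and the first listed promoter of Gas5 held no match to any of the motifs. The Snhg1 promoter held a TATA box, read on the opposite strand, 29 bases before its start, as did 13.6% of all promoters. Mir22hg and Malat1 had no match to these letters in this window. The first listed promoter of Meg3, at chr12:109540746-109541045 and not shown, held a cAMP response element 57 bases before the start and TATA boxes at 29 and 25 bases. AP-1 sites were in 7.81% and E-boxes in 7.15% of all promoters, and in none of those listed for the 6 RNAs. A match is a description of the sequence and was not tested against the expression values.

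The libraries held 12485579 to 20476979 reads on genes, and 4 entries that name no gene took 29.0% to 38.3% of the reads. At most 0.904% of the strand-assigned reads at any of the 9 genes lay on the opposite strand. The number in a library's name is written with 1 digit in all day 0 libraries, in day 1 replicates 3, 4 and 5 and in day 3 replicates 4 and 5, and with 3 digits in the other 5. The labels do not say what this difference stands for. The formats are called 1-digit and 3-digit libraries here, and day 0 has no 3-digit library. The formats stood apart widely, with 35% of tested genes called between them at day 1 and 18.5% at day 3, so the 8 RNAs tested below are also given within each format and the lists of related genes within the 1-digit libraries. These values are contrasts in a joint fit of all 14 libraries with 1 term per day and format, unless libraries are said to be left out. Neighbouring genes are given over all libraries only. Markers of the kidney tubule were present throughout: the 10 proximal tubule genes summed to 42848 to 47334 CPM at day 0, 18581 to 47434 at day 1 and 9331 to 20928 at day 3. In bulk tissue, fewer cells of a type and less RNA per cell cannot be told apart.

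Of the 8 tested RNAs, 6 rose at day 1 and none fell, where 23.3% of all tested genes rose and 42.1% changed. The set was chosen with earlier results of these data known, so such shares are given as a description and do not test the set. The 6 were Malat1, Gas5, Snhg1, Snhg12, Mir22hg and Pvt1, and in each of them every day 1 library lay above every day 0 library, as did 21.5% of all tested genes. At day 3, 5 rose, Malat1, Meg3, Gas5, Snhg1 and Mir22hg, where 19.5% of tested genes rose and 33.3% changed. Meg3 passed the filter only through the injured libraries, where it was higher, and without it 4 rose. Without day 0 replicate 3 there were 3, since Meg3 and Mir22hg were then not called. Malat1, Gas5 and Snhg1 were the 3 whose day 3 libraries all lay above day 0, against 16.9% of tested genes. Over the 8 RNAs the median log2 fold change was 1.58 at day 1 and 1.12 at day 3, beside 0.01 and 0.05 over all tested genes. Without Meg3 the median was the value of Gas5, 1.38 at day 1 and 0.80 at day 3. RNAs annotated as long noncoding by RefSeq, the 9 left out, did not share that direction: of 418 tested, 41 rose and 96 fell at day 1 with a median log2 fold change of −0.42, and 49 rose and 64 fell at day 3 with a median of −0.15. In the 1-digit libraries 51 rose and 155 fell at day 1, where 28.9% of tested genes rose and 29.6% fell. There 95 rose and 116 fell at day 3, where 28.6% of tested genes rose and 25.1% fell.

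**Figure D1:**
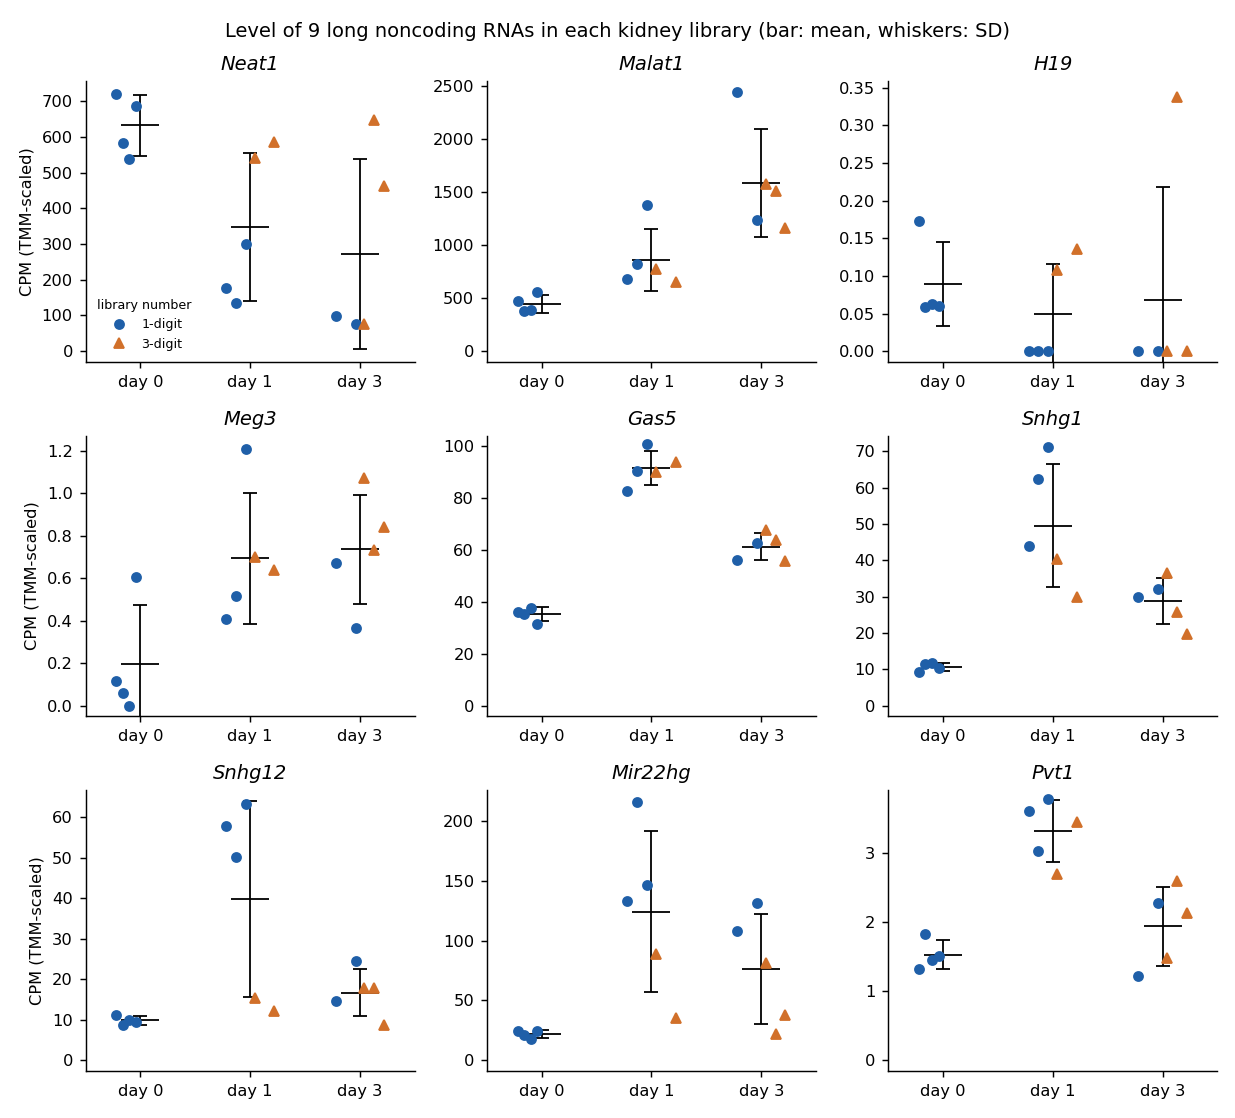
CPM (linear axis) of each of the 9 RNAs in every library at day 0 (n = 4), day 1 (n = 5) and day 3 (n = 5) after IRI; circles are 1-digit and triangles 3-digit libraries, the bar is the mean and the whiskers the SD over the day, cut off at the axis where they pass below 0. Gas5 forms 3 separate bands with its highest at day 1, whereas Neat1, Snhg12 and Mir22hg spread widely within days 1 and 3.

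Malat1 rose at day 1 and again by day 3. It stood at 471, 378, 384 and 554 CPM in the 4 day 0 libraries, at 773, 653, 679, 824 and 1375 CPM at day 1, and at 1579, 1508, 1163, 2443 and 1241 CPM at day 3. Day 0 overlapped with neither later day, while the highest day 1 library reached into the day 3 range. Against day 0 its log2 fold change was 0.95 at day 1 (SE 0.26, adjusted p = 0.0108) and 1.83 at day 3 (SE 0.27, adjusted p = 0.000323), or 1.93-fold and 3.55-fold. Between day 1 and day 3 it was 0.88 (SE 0.24, adjusted p = 0.0269), a call that was lost without day 1 replicate 3 (adjusted p = 0.0645) or 4 (0.0635) and without day 3 replicate 1 (0.0504) or 4 (0.0665). Malat1 differed between 3-digit and 1-digit libraries by −0.43 at day 1 and −0.38 at day 3 on the log2 scale (adjusted p = 0.320 and 0.406). Against day 0 the 1-digit libraries gave 1.10 and 2.04 (adjusted p = 0.00314 and 0.000122) and the 3-digit libraries 0.67 and 1.66 (adjusted p = 0.0841 and 0.000513). The rise at day 1 was thus not called in the 3-digit libraries, though it was when the other libraries of days 1 and 3 were left out of the fit (0.68, adjusted p = 0.0189).

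Neat1, the neighbour of Malat1, was far below its day 0 level in some injured kidneys and near it in others. It stood at 721, 583, 539 and 687 CPM at day 0. At day 1 the 2 3-digit libraries held 542 and 584 CPM and the 3 1-digit libraries 177, 134 and 299 CPM. At day 3 the 3-digit libraries held 76.7, 648 and 462 CPM and the 1-digit libraries 98.2 and 77.2 CPM. The 1-digit libraries of both days thus lay below all of day 0, and of the 3-digit libraries day 3 replicates 1 and 3 did.

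Over all libraries neither difference of Neat1 from day 0 passed the test: its log2 fold change was −0.86 at day 1 (SE 0.63, adjusted p = 0.277) and −1.21 at day 3 (SE 0.63, adjusted p = 0.148). Without day 3 replicate 2, the highest of that day, the day 3 value was −1.82 (adjusted p = 0.0277). Against day 0 the 1-digit libraries gave −1.64 at day 1 (SE 0.50, adjusted p = 0.0131) and −2.85 at day 3 (SE 0.63, adjusted p = 0.00224). That day 1 call was lost without day 1 replicate 4 (−1.41, adjusted p = 0.0626). The 3-digit libraries, for which format and day cannot be told apart against day 0, gave −0.17 (adjusted p = 0.825) and −0.68 (adjusted p = 0.308). Between formats Neat1 was 1.47 higher on the log2 scale in 3-digit libraries at day 1 (SE 0.56, adjusted p = 0.0580) and 2.17 higher at day 3 (SE 0.62, adjusted p = 0.0310). The day 3 difference was not called without day 3 replicate 2 (adjusted p = 0.0944), 3 (0.0775), 4 (0.0763) or 5 (0.198), and the day 1 difference was called without day 1 replicate 5 (0.0468) or day 3 replicate 1 (0.00181) or 2 (0.0372). The day 1 difference was also called with no filter (1.47, adjusted p = 0.0497) and with total counts in place of TMM (1.68, adjusted p = 0.0362).

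Neat1 and Malat1 reads were set against each other within a library, a measure that needs no scaling and was chosen after the values were seen. Neat1 reads outnumbered Malat1 reads at day 0, and the reverse held after injury. Reads were not corrected for length, and Neat1 has 20771 exon bases against 6983 for Malat1. Per kilobase of exon Malat1 was above Neat1 at day 0 as well (64.0 against 30.4 CPM per kb). Day 0 libraries held 124 to 154 Neat1 reads per 100 Malat1 reads. At day 1 there were 70.1 and 89.6 in the 3-digit libraries and 26.1, 16.2 and 21.8 in the 1-digit libraries. At day 3 there were 4.86, 43.0 and 39.8 in the 3-digit libraries and 4.02 and 6.22 in the 1-digit libraries. All 10 injured kidneys lay below all 4 of day 0, in both formats.

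**Figure D2:**
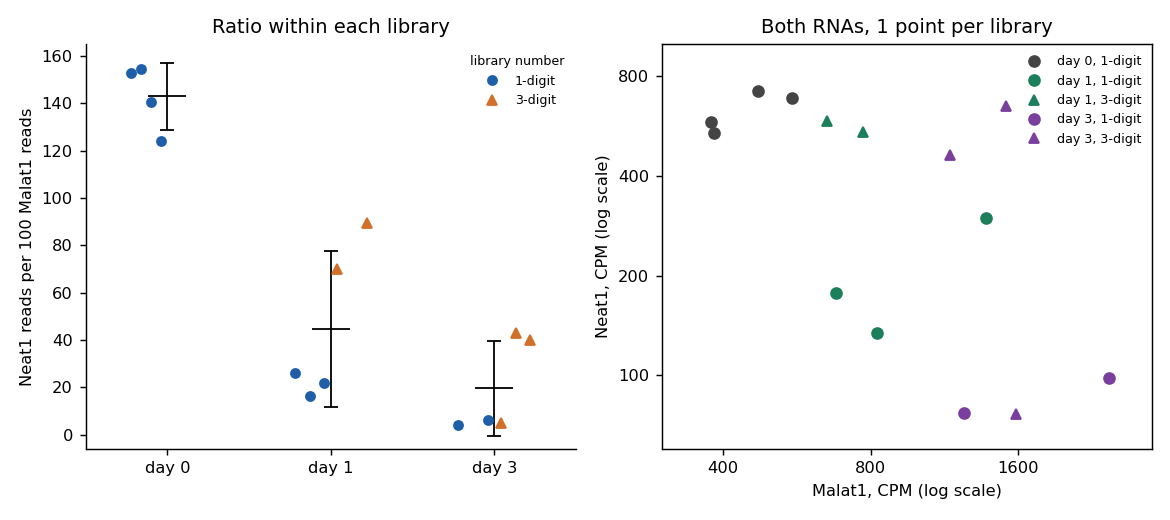
Left, Neat1 reads per 100 Malat1 reads in every library by day, with the mean and SD; right, Neat1 against Malat1 in CPM on log axes, 1 point per library, coloured by day and shaped by number format. The 4 day 0 libraries sit at 124 to 154 reads per 100, and the 10 libraries of days 1 and 3 sit at 4.02 to 89.6.

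Of 13 proteins of paraspeckles and nuclear speckles, all tested, 6 rose at day 1 and 4 at day 3, beside 23.3% and 19.5% of all tested genes. In the 1-digit libraries 7 rose and 2 fell at day 1 and 5 rose and 1 fell at day 3, where 28.9% and 28.6% of tested genes rose. Nudt21, a subunit of the cleavage factor that sets polyadenylation sites, rose by 0.90 at day 1 and 0.74 at day 3 on the log2 scale (adjusted p = 0.000170 and 0.000884). The median log2 fold change of the 13 was 0.36 at day 1 and 0.21 at day 3. Frmd8, the protein-coding neighbour on the Neat1 side of the pair, rose at both days (0.66 and 0.45, adjusted p = 0.00181 and 0.0203).

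The imprinted RNAs were at the lower limit of these libraries. H19 had 3, 1, 1 and 1 reads at day 0, 2, 3, 0, 0 and 0 reads at day 1 and 0, 6, 0, 0 and 0 reads at day 3. A count of 0 allows up to 3 reads, which is 0.136 to 0.241 CPM in these libraries, by counting error alone. No fold change was taken for H19, since all libraries but day 3 replicate 2 were at or under that limit. The reads of H19 that cover the miR-675 hairpin could not be assigned to H19 alone, since the hairpin is an entry of its own.

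Meg3 was low at day 0 and was detected in every injured kidney. It had 2, 1, 0 and 10 reads at day 0, 13, 14, 6, 9 and 15 at day 1, and 21, 13, 17, 10 and 5 at day 3, or 0.195 ± 0.277, 0.693 ± 0.308 and 0.736 ± 0.256 CPM (SD). Day 0 replicate 4, with 10 reads, overlapped with both later days, and the other 3 lay below all of them. The filter was passed through the libraries of days 1 and 3, so that Meg3 was among the tested genes because of the groups where it was high. Against day 0 the log2 fold change was 1.78 at day 1 (SE 0.69, adjusted p = 0.0511) and 1.89 at day 3 (SE 0.69, adjusted p = 0.0467). Without day 0 replicate 4 the values were 3.38 (adjusted p = 0.00312) and 3.49 (adjusted p = 0.00337). The day 3 call was lost when any of 10 other single libraries was left out, with adjusted p from 0.0507 to 0.128, and stood in 4 of the 14 such fits. Those 10 were day 0 replicates 1, 2 and 3, day 1 replicates 1, 3 and 4 and day 3 replicates 1, 2, 3 and 4. The call at day 1 was gained without day 1 replicate 3 (adjusted p = 0.0482) or day 3 replicate 5 (0.0437). In the 1-digit libraries Meg3 was called on neither day (1.80 and 1.39, adjusted p = 0.0539 and 0.188). In the 3-digit libraries it was called at day 3 alone (1.74 and 2.14, adjusted p = 0.0960 and 0.0350), and not at day 3 when the 1-digit libraries of days 1 and 3 were left out of the fit (adjusted p = 0.0537). Formats differed by −0.06 at day 1 and 0.75 at day 3 (adjusted p = 0.963 and 0.523).

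Dlk1 and Rtl1, the protein-coding neighbours of Meg3, were too low to be tested, with means of 0.164 and 0.0474 CPM at day 0. Beside H19, Igf2 had 0.761 ± 0.245 CPM at day 0, and it and Mrpl23, a mitochondrial ribosomal protein, did not pass the test at either day (adjusted p = 0.914 and 0.344 for Igf2). Of 16 other imprinted genes, 12 were tested. At day 1 edgeR called 0 of them, 3 had an unadjusted p under 0.05 and DESeq2 called 1, where edgeR called 42.1% of all tested genes. In the 1-digit libraries 4 of the 12 rose and none fell at day 1 (median log2 fold change 0.37, beside 28.9% of tested genes that rose). That day 3 were lower in 3-digit than in 1-digit libraries, beside 16.4% of tested genes. At day 3, 2 rose and 1 fell in the 1-digit libraries, where 28.6% of tested genes rose and 25.1% fell. Over all libraries at day 3, where 33.3% of tested genes changed, Peg3, a zinc finger protein, rose by 1.10 on the log2 scale (SE 0.30, adjusted p = 0.0123) and Gnas, the stimulatory G protein alpha subunit, fell by 0.46 (SE 0.11, adjusted p = 0.00646).

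The 3 snoRNA hosts rose at day 1, and Gas5 had the smallest standard error of the 8 tested RNAs. It stood at 36.2, 35.4, 37.8 and 31.4 CPM at day 0, at 90.0, 93.9, 82.6, 90.4 and 100.7 CPM at day 1, and at 67.8, 63.7, 55.7, 56.2 and 62.9 CPM at day 3. None of the 3 days overlapped with another, whichever the format. The log2 fold change was 1.38 at day 1 (SE 0.11, adjusted p = 2.71e-06, 2.60-fold), 0.80 at day 3 (SE 0.11, adjusted p = 0.000164, 1.74-fold) and −0.58 from day 1 to day 3 (SE 0.10, adjusted p = 0.00349). The difference between formats was 0.01 at day 1 (SE 0.13, adjusted p = 0.956) and 0.07 at day 3 (SE 0.13, adjusted p = 0.733). Against day 0 the 1-digit libraries gave 1.37 and 0.76 (adjusted p = 1.40e-06 and 0.000304) and the 3-digit libraries 1.38 and 0.83 (adjusted p = 6.31e-06 and 0.000138). All 3 day calls over all libraries stood in each of the 14 fits that left out 1 library.

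Snhg1 rose further than Gas5 and varied more at day 1. Day 0 libraries held 9.26, 11.4, 11.7 and 10.3 CPM, day 1 libraries 40.4, 29.8, 43.9, 62.5 and 71.3 CPM, and day 3 libraries 36.6, 25.9, 19.6, 29.9 and 32.2 CPM. Both later days lay wholly above day 0 and overlapped with each other. The log2 fold change was 2.21 at day 1 (SE 0.25, adjusted p = 3.46e-05, 4.64-fold) and 1.43 at day 3 (SE 0.25, adjusted p = 0.000863, 2.70-fold). It fell by 0.78 between the later days (SE 0.22, adjusted p = 0.0296), and this call was lost without day 1 replicate 4 (adjusted p = 0.0792) or 5 (0.0807) and without day 3 replicate 2 (0.0526), 3 (0.0665) or 4 (0.0540). At day 1 Snhg1 was lower in 3-digit libraries by −0.75 on the log2 scale (SE 0.25, adjusted p = 0.0342), and this was not called without day 1 replicate 2 (adjusted p = 0.264), 4 (0.0788) or 5 (0.110). Nor was it called with a replicate block (−0.77, adjusted p = 0.135), which overlaps with the format, or with total counts in place of TMM (−0.55, adjusted p = 0.0852). Against day 0 Snhg1 was called in both formats on both days. The 1-digit libraries gave 2.47 and 1.54 (adjusted p = 2.18e-06 and 0.000191), while the 3-digit libraries gave 1.72 and 1.36 (adjusted p = 0.000129 and 0.000431).

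Snhg12 separated by format at day 1. It stood at 11.1, 8.71, 9.85 and 9.49 CPM at day 0. At day 1 the 3-digit libraries held 15.4 and 12.0 CPM and the 1-digit libraries 57.9, 50.2 and 63.2 CPM, with no value between. At day 3 the 3-digit libraries held 17.7, 17.9 and 8.61 CPM and the 1-digit libraries 14.7 and 24.6 CPM, and the formats overlapped.

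Over all libraries Snhg12 differed from day 0 by a log2 fold change of 2.02 at day 1 (SE 0.46, adjusted p = 0.00352, 4.05-fold) and 0.77 at day 3 (SE 0.44, adjusted p = 0.192). The day 3 rise was called when day 0 and day 3 alone were fitted (0.75, adjusted p = 0.0442). With the format as a term the day 3 value was 1.55 (adjusted p = 0.00514). That term takes the same format difference on both days, which Snhg12 did not have (−2.06 and −0.41). The 1.55 lies above the day 3 value of either format (1.00 and 0.59) and cannot be read as a rise at day 3. Within the 1-digit libraries the log2 fold change was 2.54 at day 1 (SE 0.24, adjusted p = 3.75e-06) and 1.00 at day 3 (SE 0.27, adjusted p = 0.00693). That day 3 call was lost without day 3 replicate 5 (0.61, adjusted p = 0.145). The 3-digit libraries gave 0.48 at day 1 (SE 0.27, adjusted p = 0.169) and 0.59 at day 3 (SE 0.24, adjusted p = 0.0780). The 3-digit libraries were lower at day 1 by −2.06 on the log2 scale (SE 0.30, adjusted p = 0.000524), and at day 3 by −0.41 (SE 0.28, adjusted p = 0.312). The format differences of the 2 days differed from each other by 1.65 (SE 0.41, adjusted p = 0.0161), a call lost without day 1 replicate 2 (1.48, adjusted p = 0.0677) or day 3 replicate 4 (1.32, adjusted p = 0.0571).

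The change from day 1 to day 3 was −1.25 for Snhg12 (SE 0.41, adjusted p = 0.0520). It was called without day 1 replicate 1 (−1.47, adjusted p = 0.0208) or 2 (−1.48, 0.0101) or day 3 replicate 5 (−1.46, 0.0325). Set against its fellow host Snhg1 in each library, by a ratio chosen after the values were seen, Snhg12 had 76.7 to 120 reads per 100 Snhg1 reads at day 0. The ratio at day 1 was 38.0 and 40.4 in the 3-digit libraries and 132, 80.4 and 88.7 in the 1-digit libraries, and at day 3 it was 43.9 to 76.5. At day 1 the 3-digit libraries lay below the day 0 range in this ratio and 2 of the 3 1-digit libraries within it.

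Of 16 other snoRNA host genes 13 were counted and 12 tested. At day 1, 5 rose and 1 fell, and 4 rose and 2 fell at day 3, with a median log2 fold change of 0.48 and 0.57, where 23.3% and 19.5% of all tested genes rose. In the 1-digit libraries 6 rose and 1 fell at day 1, and 8 rose and 1 fell at day 3 (medians 0.47 and 0.88), where 28.9% and 28.6% of tested genes rose. In 3-digit against 1-digit libraries 2 were lower at day 1 and 4 at day 3, with a median difference of −0.07 and −0.74. Of all tested genes 16.4% were lower at day 1. At day 3, 18.5% of them differed in either direction and 10.3% were higher. The called genes of largest change over all libraries were Snhg5 and Snhg3. Snhg5 rose from 3.33 ± 0.528 CPM (SD, n = 4) to 25.1 ± 8.59 (n = 5) at day 1 (2.91, SE 0.28, adjusted p = 1.29e-05) and stood at 13.4 ± 3.12 at day 3 (2.00, SE 0.27, adjusted p = 0.000183). Snhg3 rose by 2.14 at day 1 and 2.22 at day 3 (adjusted p = 0.00882 and 0.00950). The host that fell on both days, named after its values were seen, was Snhg11 (−1.34 and −1.20, adjusted p = 0.00414 and 0.0101), and Snhg18 also fell at day 3 (−0.40, adjusted p = 0.0400).

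At day 1 genes beside the hosts moved less than the hosts, as values side by side and without a test of the difference. Slc3a2, an amino acid transporter chain that begins 0.11 kb from Snhg1 on the other strand, rose by 1.08 at day 1 (SE 0.21, adjusted p = 0.00158) and stood at 0.13 at day 3 (adjusted p = 0.648). Wdr74, a ribosome assembly factor on the other side of Snhg1, rose by 1.08 at day 1 (adjusted p = 0.000337). Trnau1ap, 0.74 kb from Snhg12, rose by 0.67 and 0.50 (adjusted p = 0.00411 and 0.0243), and Rab42 on the other side stood at −1.11 and −0.32 (adjusted p = 0.0843 and 0.626). Near Gas5, Zbtb37, which overlaps its start on the opposite strand, stood at 0.11 at day 1 (adjusted p = 0.726) and rose by 0.83 at day 3 (adjusted p = 0.0172). Serpinc1, the antithrombin gene, did not pass the test on either day (adjusted p = 0.734 and 0.259).

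Mir22hg rose at day 1 and day 3, with a wide spread. It stood at 24.4, 20.9, 17.7 and 24.7 CPM at day 0, at 88.4, 35.6, 133, 216 and 146 CPM at day 1, and at 81.5, 22.0, 38.0, 108 and 132 CPM at day 3. Day 1 lay wholly above day 0, and at day 3 replicate 2 fell within the day 0 range. The log2 fold change was 2.50 at day 1 (SE 0.53, adjusted p = 0.00244, 5.65-fold) and 1.80 at day 3 (SE 0.52, adjusted p = 0.0167, 3.47-fold). The day 3 call was lost without day 0 replicate 3 (1.70, adjusted p = 0.0517). From day 1 to day 3 the difference was −0.70 (SE 0.46, adjusted p = 0.315).

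The 1-digit libraries of Mir22hg lay above the 3-digit libraries on both days. The 3-digit libraries held 88.4 and 35.6 CPM at day 1, below the 1-digit range of 133 to 216, and 22.0 to 81.5 CPM at day 3, below 108 and 132. On the log2 scale they were lower by −1.42 at day 1 (SE 0.47, adjusted p = 0.0326) and by −1.34 at day 3 (SE 0.44, adjusted p = 0.0502). The day 1 difference was not called without day 1 replicate 2 (−0.90, adjusted p = 0.272) or 4 (−1.18, 0.0960) and was −2.23 (0.0178) without day 1 replicate 1. The day 3 difference was called without day 1 replicate 1 (adjusted p = 0.0374) or 2 (0.0382) or day 3 replicate 1 (−2.0, 0.00339). Against day 0 the 1-digit libraries gave 2.91 and 2.45 (adjusted p = 4.56e-05 and 0.000377) and the 3-digit libraries 1.50 and 1.10 (adjusted p = 0.0117 and 0.0395). When the 1-digit libraries of days 1 and 3 were left out of the fit, the day 3 rise in the 3-digit libraries was not called (1.11, adjusted p = 0.0678).

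Tlcd2, a gene of the same strand, overlaps Mir22hg, and so does the entry of the miR-22 hairpin, so reads that touch both could not be assigned to Mir22hg. Tlcd2 stood at 0.45 and 0.50 on the log2 scale (adjusted p = 0.357 and 0.328). The neighbour Wdr81 fell by 0.90 at day 1 (SE 0.21, adjusted p = 0.00407) and stood at −0.53 at day 3 (adjusted p = 0.0622), and Prpf8, a core protein of the spliceosome, stood at −0.15 and −0.22 (adjusted p = 0.356 and 0.178).

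Pvt1 rose at day 1 and was near its day 0 level at day 3, at 18 to 76 reads a library. It stood at 1.32, 1.82, 1.45 and 1.51 CPM at day 0, at 2.69, 3.45, 3.61, 3.03 and 3.78 CPM at day 1, and at 1.48, 2.59, 2.13, 1.21 and 2.28 CPM at day 3. Day 1 lay above both other days, which overlapped. The log2 fold change was 1.11 at day 1 (SE 0.27, adjusted p = 0.00508, 2.16-fold) and 0.34 at day 3 (SE 0.27, adjusted p = 0.337). Between day 1 and day 3 it was −0.77 (SE 0.25, adjusted p = 0.0473), which was lost when any of 11 of the 14 libraries was left out (adjusted p up to 0.106) and stood without day 1 replicate 1 and day 3 replicates 2 and 5. Formats differed by −0.17 at day 1 and 0.25 at day 3 (adjusted p = 0.716 and 0.638). Against day 0 Pvt1 was called at day 1 in both formats and at day 3 in neither. The 1-digit libraries gave 1.18 and 0.18 (adjusted p = 0.00312 and 0.661), while the 3-digit libraries gave 1.01 and 0.43 (adjusted p = 0.0203 and 0.271).

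Myc, a transcription factor of cell growth whose gene lies 47.61 kb from Pvt1 on the same strand, rose from 6.82 ± 1.79 CPM (SD, n = 4) to 65.8 ± 11.3 (n = 5) at day 1 and stood at 19.3 ± 7.0 (n = 5) at day 3. Its log2 fold change was 3.27 at day 1 (SE 0.28, adjusted p = 5.22e-06) and 1.50 at day 3 (SE 0.27, adjusted p = 0.00107). On the other side Gsdmc, at 1397.87 kb, had no read in any library.

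From day 1 to day 3, 4 of the 8 tested RNAs changed: Malat1 rose, and Gas5, Snhg1 and Pvt1 fell. Among all tested genes 15.9% changed, 8.52% upward and 7.39% downward. Gas5 and Pvt1 were the 2 whose day 3 libraries all lay below day 1, beside 3.47% of tested genes. With 1 library left out the 4 calls became 1 to 5, and there were 2 or fewer without day 1 replicate 3 (2), 4 (1) or 5 (2) and without day 3 replicate 1 (2), 3 (2) or 4 (1). Within the 1-digit libraries 5 of the 8 changed, Snhg12 in addition to these 4, where 32% of tested genes did. Neat1 was called as well without day 3 replicate 1 (−1.21, adjusted p = 0.00804) and when the 3-digit libraries were left out of the fit (−1.23, adjusted p = 0.0105), against an adjusted p of 0.137 in the joint fit. That count was 3 without day 1 replicate 3, 4 or 5 and 2 without day 3 replicate 4. Within the 3-digit libraries, 2 at day 1 and 3 at day 3, the fall of Gas5 was the only call (−0.56, adjusted p = 0.0157), where 13.9% of tested genes changed. That call was lost without day 1 replicate 1 (adjusted p = 0.0903) or 2 (0.0906), and Malat1 was called in addition without day 1 replicate 5 (0.99, adjusted p = 0.0410) or day 3 replicate 4 (0.0342) or 5 (0.0363).

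**Figure D3:**
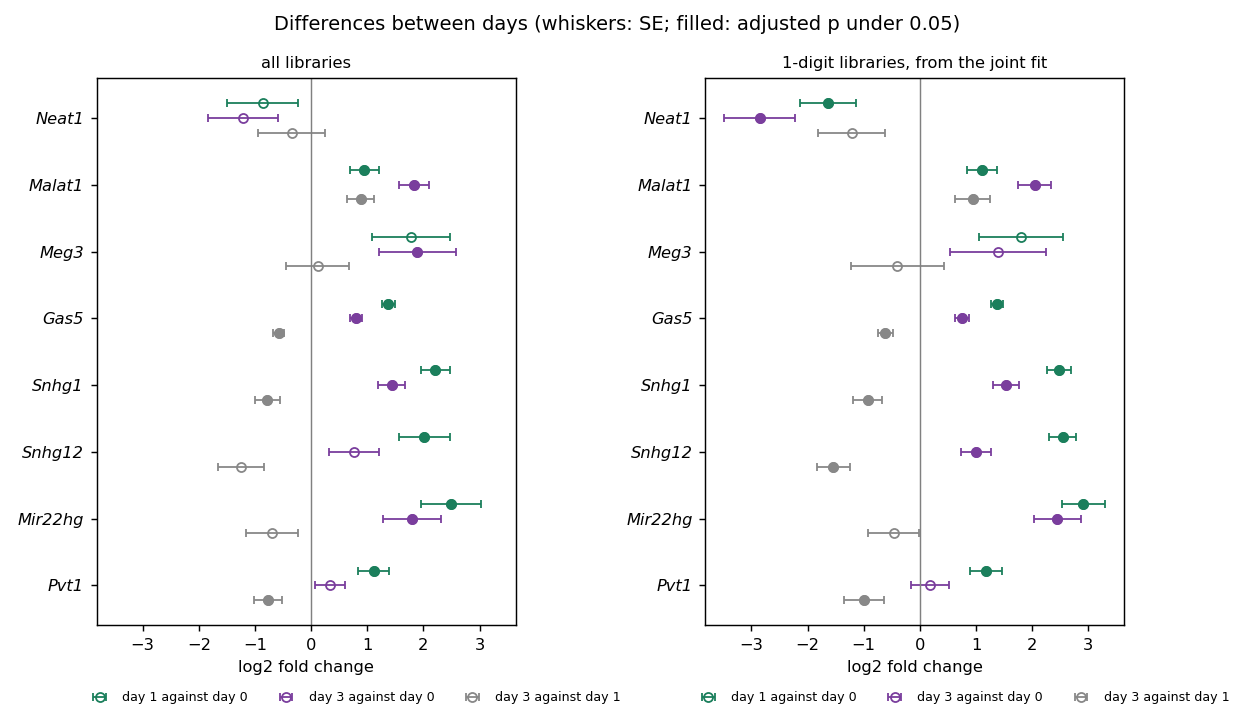
Log2 fold change with its SE for the 8 tested RNAs between each pair of days, over all 14 libraries (left) and for the 9 1-digit libraries as contrasts of the joint fit (right); filled points have an adjusted p under 0.05. At day 1, 6 of the 8 lie to the right of 0 as filled points on both sides, and Neat1 is filled to the left of 0 only among the 1-digit libraries.

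Within the 1-digit libraries, 7 of the 8 RNAs changed at day 1, 6 upward and Neat1 downward, where 58.5% of tested genes changed, 28.9% upward and 29.6% downward. At day 3, 6 changed, 5 upward and Neat1 downward, where 53.7% of tested genes did, 28.6% upward and 25.1% downward. Between formats 3 of the 8 were called at day 1, Snhg1, Snhg12 and Mir22hg, each lower in 3-digit libraries, beside 16.4% of tested genes that were lower. Without day 1 replicate 2 or 4 that count was 1, Snhg12. At day 3, 1 was called, Neat1, higher in 3-digit libraries, beside 10.3% of tested genes that were higher. For Snhg12 the format difference changed between the days, as it did for 17.6% of tested genes.

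**Figure D4:**
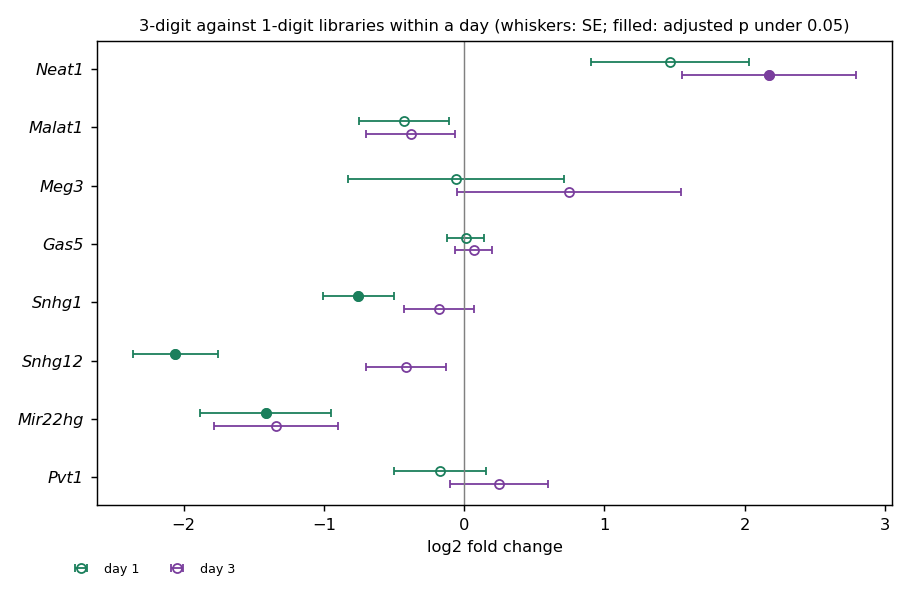
Log2 difference of 3-digit from 1-digit libraries with its SE for the 8 tested RNAs, at day 1 (2 against 3 libraries) and day 3 (3 against 2 libraries); filled points have an adjusted p under 0.05. Gas5 lies at 0.01 and 0.07, whereas Snhg12 lies at −2.06 at day 1 and Neat1 at 2.17 at day 3.

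Marker genes of other cell types and of injury moved with these groups, and their part in the results was not tested. All 6 tubular injury genes rose at day 1 and 5 at day 3, from a sum of 1166 to 1537 CPM at day 0 to 8448 to 37005 and 6605 to 44391 CPM. All 6 neutrophil genes rose on both days, from 1.33 to 2.07 CPM at day 0 to 49.3 to 206 and 19.6 to 419 CPM, and 4 of 10 proximal tubule genes fell on each day. Of 8 fibroblast and pericyte genes, 2 rose at day 1 and 6 at day 3, from 128 to 136 CPM to 146 to 459 and 533 to 1175 CPM. Of 6 smooth muscle genes 3 rose on each day and none fell, from 142 to 170 CPM to 309 to 578 and 289 to 958 CPM. Of 7 distal nephron and collecting duct genes 3 fell at day 1 and 4 at day 3, from 7511 to 9951 CPM to 3941 to 6411 and 2491 to 3785 CPM. All 6 proliferation genes rose at day 3, from 9.25 to 31.5 CPM to 19.9 to 496 CPM, while in the 1-digit libraries 3 of the 6 did. No gene of these lists was at 0 in every library of a day. Formats differed as well: proximal tubule genes summed to 18581 to 29242 CPM in 3-digit and 36302 to 47434 in 1-digit libraries at day 1, with 5 of 10 lower in the 3-digit libraries. At day 3 the order was the other way in 5 of the 10, and 6 of 6 proliferation genes were higher in 3-digit libraries, at 280 to 496 CPM against 19.9 to 51.6. Tubular injury genes summed to 31235 to 37005 CPM in 3-digit and 8448 to 16289 in 1-digit libraries at day 1, with 2 of 6 called higher. Also higher in the 3-digit libraries at day 1 were 5 of 6 smooth muscle genes (487 to 578 against 309 to 398 CPM), 4 of 8 fibroblast and pericyte genes (344 to 459 against 146 to 197 CPM) and 3 of 6 urothelium genes (21.8 to 127 against 1.23 to 5.87 CPM). At day 3, 4 of 6 macrophage genes were higher in 3-digit libraries and 1 lower (215 to 405 against 96.2 to 108 CPM), while 4 of 6 endothelium genes (152 to 259 against 391 to 642 CPM) and 3 of 6 smooth muscle genes (289 to 347 against 777 to 958 CPM) were lower.

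Levels were set against each other per kilobase of exon, by the union of annotated exons. At day 0 Malat1 was highest, at 64.0 ± 11.9 CPM per kb (SD, n = 4), followed by Neat1 (30.4 ± 4.11), Mir22hg (11.4 ± 1.72), Gas5 (9.37 ± 0.718), Snhg12 (4.08 ± 0.415), Snhg1 (3.60 ± 0.376), Pvt1 (0.218 ± 0.0304), H19 (0.0361 ± 0.0227) and Meg3 (0.0108 ± 0.0153). Neighbours in this order overlapped in their libraries for Mir22hg and Gas5, for Snhg12 and Snhg1, and for H19 and Meg3, and not for the other neighbours. The order at day 1 ran Malat1, Mir22hg, Gas5, Neat1, Snhg1 and Snhg12, and each overlapped with the next. At day 3 it was the same, and of these 6 Malat1 alone stood clear of the next, at 227 ± 73.0 CPM per kb (n = 5) against 39.6 ± 24.0 for Mir22hg. These orders pool the formats, and Neat1 differed between them: in the 3-digit libraries its mean lay between those of Mir22hg and Gas5 on both days (27.1 and 19.1 CPM per kb, beside 24.5 and 16.6 for Gas5), and in the 1-digit libraries it was the lowest of the 6 (9.79 and 4.22). The hosts differed too at day 1: Snhg12 was above Snhg1 in the 1-digit libraries (23.8 against 19.9) and below it in the 3-digit libraries (5.70 against 11.8). Neat1 has annotated transcripts of 711 to 20771 bases, and the longest was used, so its level per kilobase would be higher if the reads came from a shorter one. For the others but Malat1 the union is longer than any annotated transcript, as for Pvt1 (6996 against 3319 bases) and Snhg12 (2402 against 1538). Their levels per kilobase of a transcript would be higher, and the order holds for this measure of length only.

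The genes most like each RNA over all 14 libraries, by Pearson's r of log2 CPM among genes with a mean of at least 1 CPM, are given as a description: the libraries share days and formats, and no test was made. For Neat1 they were AU041133 (r = 0.952), Mettl3 (0.950), an RNA methyltransferase subunit, and Top1 (0.944), DNA topoisomerase I. For Malat1 they were 2810403D21Rik (0.931), Bhlhb9 (0.926) and Tlr13 (0.921), and for Meg3 Krt19 (0.905), Bend4 (0.901) and Il3ra (0.899). Gas5 was closest to Tspan4 (0.979), the keratin Krt8 (0.974) and S100a10 (0.971), and Snhg1 to Carhsp1 (0.976), the host gene Snhg5 (0.975) and Prpf38a (0.973). Snhg12 was closest to Zfp622 (0.981), Mbip (0.975) and Qrich1 (0.968), and Mir22hg to Cast (0.979), Armcx5 (0.977) and Dazap2 (0.976). For Pvt1 they were Nop58 (0.963), a core protein of snoRNA particles, Heatr1 (0.959), a ribosome biogenesis factor, and 2410016O06Rik (0.951).

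Of 23 further named long noncoding RNAs, 19 were counted and 14 tested. At day 1, 2 rose and 2 fell, and 2 rose and 1 fell at day 3, where 42.1% and 33.3% of all tested genes changed. In the 1-digit libraries 2 rose and 4 fell at day 1, and 4 rose and 2 fell at day 3, where 58.5% and 53.7% of tested genes changed. The called genes of largest change over all libraries at day 1 were Mir143hg, host of the smooth muscle microRNAs miR-143 and miR-145, and Mir17hg, host of the miR-17 cluster, which rose by 1.39 and 0.77 on the log2 scale (adjusted p = 0.0108 and 0.0262). At day 3 they were Dnm3os, host of the miR-199a and miR-214 cluster, and Mir143hg, which rose by 2.42 and 1.89 (adjusted p = 0.00668 and 0.00268). Those that fell, named after their values were seen, were Firre (−0.62, adjusted p = 0.00548) and Tug1 (−0.39, adjusted p = 0.0170) at day 1 and Dleu2 (−1.62, adjusted p = 0.00417) at day 3. Mir143hg had 1.12 ± 0.291 CPM at day 0 (SD, n = 4), 2.93 ± 0.847 at day 1 and 4.17 ± 1.73 at day 3 (n = 5 each).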

How the data were processed

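Total RNA of 14 mouse kidneys (TRIzol, Illumina TruSeq kit) was sequenced. According to the submitters' processing notes, the reads were trimmed with Trimmomatic and aligned with STAR to mm10. For these steps the versions and parameters, like the gene annotation, are not given in the sources used here. The authors deposited, for each library, the raw counts that STAR assigns to every gene from uniquely mapped reads, in an unstranded column and 1 column per strand, with no normalisation. Uniquely mapped reads undercount genes with near-identical copies, and reads that touch 2 genes are assigned to neither. The opposite-strand column held 98.5% to 98.7% of strand-assigned reads and was used. Entries that name no gene (29.0% to 38.3% of reads) were left out.

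The counts were fitted with edgeR 4.0.16 under R 4.3.3 (limma 3.58.1 is used by edgeR), and DESeq2 1.42.0 served as an alternative. A model for these counts is not given in the sources used here. Genes were kept by filterByExpr with the day as group (14300 genes), scaled by TMM and fitted by glmQLFit with 1 term per day, and formats with 1 term per day and format. Each contrast was tested by glmQLFTest with Benjamini-Hochberg adjustment over all genes. Standard errors came from the F value, and a prior count of 2 was added for log2 CPM. Depth was 12485579 to 20476979 reads on genes, and limits at 3 counts cover counting error only.

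Groups and replicate numbers came from the labels. Nothing in the labels says that libraries of a group came from separate experiments, so p-values measure the spread between these samples. Replicates differed beyond sampling noise (lowest chi-square per degree of freedom 5.69), and none was counted as a repeat. The members and gene lists were chosen with earlier results of these data known. Genes named were the 9 members, their nearest protein-coding neighbours, the 3 most similar genes and the 2 called genes of largest change per list and day, with exceptions stated. Some genes that this rule names are not reported here. Alternatives were the unstranded column, other scalings and filters, DESeq2, a log2 fold change minimum of 1, only the 2 days compared, a replicate block, the format as a term, each format alone and leaving out each library. Gene models were GENCODE M21 and sequences RefSeq GRCm38.p6.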

Additional observations from a re-analysis of the deposited data

Results flagged for a closer look

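Among 27 groups of member levels (9 RNAs on 3 days), the highest or lowest library met the test for a value far from the others in 3, where chance gives about 1.35, or 1 in 20. Malat1 at day 1 was 1375 CPM in replicate 5, while the other 4 libraries held 653 to 824 CPM. H19 at day 0 was 0.173 CPM in replicate 1, from 3 reads, while the others held 0.0588 to 0.0632 CPM from 1 read each, a difference within counting error. H19 at day 3 was 0.338 CPM in replicate 2, from 6 reads, while the others held none.

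The difference of 3-digit from 1-digit libraries in Snhg12 changed by 1.65 on the log2 scale from day 1 to day 3, by edgeR's test of the interaction (adjusted p = 0.0161), with −2.06 at day 1 and −0.41 at day 3. All 3 1-digit libraries lay above both 3-digit libraries at day 1, and at day 3 the formats overlapped.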

How the results depend on the processing

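Of 621 values of the 8 RNAs under alternatives in the 3 day comparisons over all libraries, 540 kept their direction and their side of the threshold, 57 lost the call, 20 gained it and 4 changed sign. The rises of Gas5, Snhg1 and Mir22hg at day 1 were called under all 12 other settings and in all 14 fits without 1 library. These 4 changes of sign were uncalled and lay between day 3 and day 1. Uncalled values also changed sign between and within formats, which are not among the 621. Meg3 gave −0.41 in only 1-digit libraries and −0.055 to 0.38 with 1 library left out, and Snhg12 gave 0.10 in only 3-digit libraries. A log2 fold change of at least 1 was called for 3 of the 8 RNAs at day 1, beside 848 of all 14300 tested genes. It was called for 1 of the 8 at day 3 and 0 between day 3 and day 1. These counts are from edgeR's glmTreat, and in the last comparison DESeq2 without a minimum called 5 and 5 had an unadjusted p under 0.05 in edgeR's plain test. In 3-digit libraries alone there were 3 calls at day 3 against day 0 and 2 against day 1, and fitting only the 2 days compared gave 1 for day 3 against day 1. With 1 library left out, calls numbered 6 to 7 at day 1, 3 to 5 at day 3 and 1 to 5 between them. For the formats they numbered 1 to 4 at day 1 and 0 to 2 at day 3, and 0 to 1 for their difference. Within 1-digit libraries they numbered 6 to 8, 5 to 7 and 2 to 6 for the 3 day comparisons, and 0 to 2 for day 3 against day 1 within 3-digit libraries. With the format as a term Neat1 was called on both days (−1.77, adjusted p = 0.00520, and −2.63, adjusted p = 0.00162) and Snhg12 at day 3 (1.55, adjusted p = 0.00514), and Meg3 at day 3 was not (1.67, adjusted p = 0.0912). That term takes the same format difference on both days, so the Snhg12 value cannot be read as a rise at day 3. At day 3 the format gave 2 calls with total counts without TMM, with no filter, with at least 10 counts in every library and with DESeq2. Within 3-digit libraries, day 3 against day 1 gave 2 with total counts and with DESeq2. Total counts moved the median of all genes to 0.19 at day 3, 0.17 between the later days and 0.24 between formats at day 1. The cause was not tested for any of these. At 0 to 21 reads a library, depth limits H19 and Meg3.

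Replicate numbers did not pair the libraries: of 13 same-numbered pairs 4 had a correlation over 0.1 (−0.18 to 0.26). With the replicate block, calls numbered 0 for the format at day 3, 3 for day 3 against day 1 within 1-digit libraries and 0 within 3-digit libraries, where 1, 5 and 1 were called without it. Meg3 at day 3 lost its call (2.09, adjusted p = 0.0647) and so did the format difference of Snhg1 at day 1 (−0.77, adjusted p = 0.135). On days 1 and 3 every replicate number but 3 had the same format on both days. The block thus takes up part of the format difference, and a format call lost under it is no check of that difference.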
